A study of Mus musculus with 9 samples.

Results

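MicroRNA-22 (miR-22) is made from the long noncoding RNA gene Mir22hg, and this report follows that gene with 8 protein-coding genes that earlier work named as targets of miR-22. The members are Mir22hg, Tet1, Tet2, Tet3, Fgfr1, Cdk6, Max, Sp1 and Mecom. Rows were taken by gene symbol, and 9 of the 55401 rows of the count table carried these symbols. All 9 were among the 15717 genes that passed the filter on low counts and were tested.

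The RNA came from whole livers of female mice, with 3 livers in each of 3 groups. The mice were obtained at an age of 6 weeks, before any injection, and their age at collection is not given in the sources used here. Healthy livers were from wild-type mice that received neither plasmids nor virus. In the other groups, hepatocellular carcinoma (HCC) was induced with activated AKT and NRAS (RAS/AKT). Their plasmids, with a sleeping beauty transposase that inserts them into the genome, were given by hydrodynamic injection, in which a large volume is pushed quickly into the tail vein so that hepatocytes take up DNA. The mice then received AAV8-miR-22, an adeno-associated virus that carries miR-22 (miR-22-treated HCC), or AAV8 blank (untreated HCC), 1 week after the oncogenes, and livers were collected at 5 weeks, 4 weeks after the virus. The injection, the oncogenes and the virus itself cannot be told apart in a comparison with healthy livers, because no healthy mouse received any of them. The protocol text names the strain FVB/N whereas the strain label reads C57BL/6, and that text also lists a β-catenin plasmid although the series describes its tumors as RAS/AKT. The labels do not say more of the 3 livers in a group than their number, so p-values measure the spread between these livers.

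A microRNA is cut from a hairpin in a longer transcript, and its mature strand then guides Argonaute proteins to messenger RNAs. Pairing of the seed, the bases near the 5′ end of the mature strand, with a 3′ UTR usually lowers the stability or the translation of the message, so part of the effect of a microRNA is on protein and leaves no trace in RNA counts. In the liver, miR-22 is known from work on lipid metabolism, fibroblast growth factor signaling and tumor growth.

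The mature strands are shown because the search for target sites rests on them. They are RefSeq sequences on GRCm38.p6, chromosome 11, plus strand, and capitals mark the seed, bases 2 to 8.
mmu-miR-22-3p, chr11:75463772-75463793: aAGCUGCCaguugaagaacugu
mmu-miR-22-5p, chr11:75463734-75463755: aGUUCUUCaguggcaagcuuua
The hairpin that holds them, 95 bases at chr11:75463716-75463810 on the same build, has both strands in capitals.
Mir22 hairpin: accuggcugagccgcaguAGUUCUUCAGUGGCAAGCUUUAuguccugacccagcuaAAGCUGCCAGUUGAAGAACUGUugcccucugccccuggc

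No other mature mouse miRNA in that table had the seed of miR-22-3p. The 7-base motif complementary to it, GGCAGCT, was searched on the sense strand of annotated 3′ UTRs on GRCm39. Of the 8 protein-coding members, 7 had a 3′ UTR in their canonical transcript, of 1299 to 10217 bases, and 7 of these 7 held the motif, Tet1 at 2 places. The canonical transcript of Tet3 has no annotated 3′ UTR, and its longest annotated one (5669 bases) held 1 match, whereas the longest one of Mecom (1576 bases) held 0. By canonical transcripts, 16.9% of the 13550 tested genes with a 3′ UTR held the motif. By the longest 3′ UTR of each gene, 29.9% of 13643 tested genes did. The canonical 3′ UTRs had a median of 3062 bases in the members and 1341 over the 13550 genes. The members were also chosen as reported targets, so these shares are a description and not a test. The sites are shown with the motif in capitals, in the sense orientation, because they are where the members could pair with the seed.
Tet1, chr10:62644290-62644319, minus strand: gcccctcccctacttcagtgctGGCAGCTc
Tet1, chr10:62641254-62641283, minus strand: atggttttatagctaaactatgGGCAGCTt
Tet2, chr3:133171083-133171112, minus strand: caacaaaaaccgaaagagaataGGCAGCTg
Tet3, chr6:83341084-83341113, minus strand: ggccaaagctaggctcagagaaGGCAGCTt
Fgfr1, chr8:26065483-26065512, plus strand: ctgcttctttaaatgcagttttGGCAGCTg
Cdk6, chr5:3572409-3572438, plus strand: ctactccatagaaggtgtagaaGGCAGCTt
Max, chr12:76985085-76985114, minus strand: ttaaaccaaaacaccccaacttGGCAGCTc
Sp1, chr15:102344346-102344375, plus strand: ataatggtctgaggaagccaaaGGCAGCTg
Mecom, chr3:30006652-30006681, minus strand: atattttgttttgcacagccaaGGCAGCTg
None of these 9 sites was followed by an A, the base opposite the 5′ end of the miRNA in the longer canonical site. A match is a description of the letters and not a measured site.

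The libraries held 16664659 to 23908392 counts. Levels are given in CPM, the counts of a gene per 1000000 counts of the TMM-scaled library total, and a gene was called at a Benjamini-Hochberg adjusted p under 0.05 in edgeR's quasi-likelihood test together with a fold change over 1.5. The hairpin row Mir22 held 0 counts in all 9 libraries, and libraries of this kind do not capture mature miRNAs, so the delivered miR-22 was not measured. Akt1 was at 105 ± 2.96 CPM (SD, n = 3) in the healthy group, 1490 ± 275 in the untreated tumors and 858 ± 223 in the treated ones. Nras was 28.6 ± 1.51, 69.9 ± 7.02 and 54.6 ± 1.09 CPM. Reads of the oncogenes and of the mouse genes cannot be told apart in Akt1 and Nras, and Akt1 was lower with miR-22 (log2 fold change -0.79, adjusted p = 0.0079, edgeR). The 6 hepatocyte markers summed to between 120000 and 125000 CPM in the healthy group, between 48800 and 60700 in the untreated tumors and between 73000 and 90600 in the treated ones. The 5 cholangiocyte markers summed to 29.4 to 41.9, 3320 to 6210 and 1560 to 2700 CPM. Macrophage markers summed to 278 to 346, 291 to 331 and 348 to 363 CPM, and lymphocyte markers to 3.9 to 5.41, 4.33 to 6.9 and 4.53 to 6.94. Of the macrophage markers, Cd68 and C1qa were called higher in both HCC groups than in healthy livers. The 4 neutrophil markers summed to 1.64 to 4.4, 15.7 to 20.9 and 14.3 to 21.9 CPM, with Ly6g at 0 in every healthy and untreated HCC library. Stellate cell markers summed to 279 to 318, 469 to 562 and 431 to 470 CPM, and they were split. Col1a1, Pdgfrb and Rgs5 were called higher in untreated HCC while Dcn and Lrat were called lower, and with miR-22 Dcn and Lrat were called higher and Col1a1 lower. Endothelial markers summed to 349 to 438, 218 to 278 and 290 to 373 CPM. Of these, Tek, Stab2, Kdr and Clec4g were called lower in untreated HCC, and with miR-22 Clec4g was called higher. In miR-22-treated HCC against healthy livers, Lyve1 was called higher and Kdr lower. In whole liver, fewer cells of a type and less RNA per cell cannot be told apart, and the part of these shifts in the results on the members was not tested.

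Mir22hg fell in untreated HCC and was partly higher again with miR-22. The gene lies at chr11:75352365-75357502 on GRCm39, plus strand, and its transcript of 1752 bases has 3 exons. In healthy livers it had 70.8, 58.5 and 56.5 CPM. In untreated HCC it had 13.3, 20.5 and 20.6 CPM, and in miR-22-treated HCC 32.7, 31.9 and 27.9 CPM. The 3 groups did not overlap, and the treated livers lay between the others. Compared with healthy livers, Mir22hg was 3.41-fold lower in untreated HCC (log2 fold change -1.77, 95% interval -2.11 to -1.43, edgeR adjusted p = 1.3e-06). It was 1.7-fold higher in miR-22-treated than in untreated HCC (log2 fold change 0.76, interval 0.42 to 1.1, adjusted p = 0.0045, edgeR), and still 2.01-fold lower than in healthy livers (adjusted p = 0.00031, edgeR). Without the low HCC replicate 2, the rise with miR-22 was 0.58 on the log2 scale, just under the fold threshold, with an edgeR adjusted p of 0.013. Reads from a miR-22 cassette in the virus and reads from the mouse locus cannot be told apart in these counts.

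Mir22hg shares 206 of its 1924 exonic bases (10.7%) with Tlcd2, a protein-coding gene on the same strand that encodes a membrane protein, so the split of reads between them is uncertain. Tlcd2 moved in the same directions. It had 114, 126 and 131 CPM in healthy livers, 31.6, 28.7 and 43.1 in untreated HCC, and 67.8, 74.8 and 48.2 in miR-22-treated HCC. Its log2 fold changes were -1.84 in untreated HCC and 0.88 with miR-22, both called. The counts of Tlcd2 were therefore low in the same group as those of Mir22hg, without overlap with either other group.

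The genes around Mir22hg were described by position. Of the 9 tested genes other than Mir22hg that reach within 50 kb of it, 9 of 9 had a log2 fold change below 0 in untreated HCC against healthy livers, and 7 were called lower, where 18.1% of all tested genes were called lower. These were Serpinf1 and Serpinf2, which encode secreted serpins, Wdr81, Tlcd2, Prpf8, a core spliceosome protein, Rilp, a lysosome adaptor, and Scarf1, a scavenger receptor. Their log2 fold changes ran from -1.84 for Tlcd2 to -0.94 for Serpinf2. With miR-22, 4 of the 9 were called higher than in untreated HCC, namely Serpinf1 at 0.66, Tlcd2 at 0.88, Rilp at 0.84 and Scarf1 at 0.78 on the log2 scale, where 8.32% of all tested genes were called higher. Smyd4 and Gm12337 were called in neither comparison. In a window of 200 kb, 7 of 18 genes were called lower and 4 higher in untreated HCC, and in a window of 1000 kb, 9 of 42 were called lower and 10 higher. With miR-22, 2 of 18 were called lower and 4 higher in the former window, and 4 of 42 lower and 5 higher in the latter, with a median log2 fold change of -0.109. The window of 50 kb was set for this description and was not tested against other places.

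**Figure D1:**
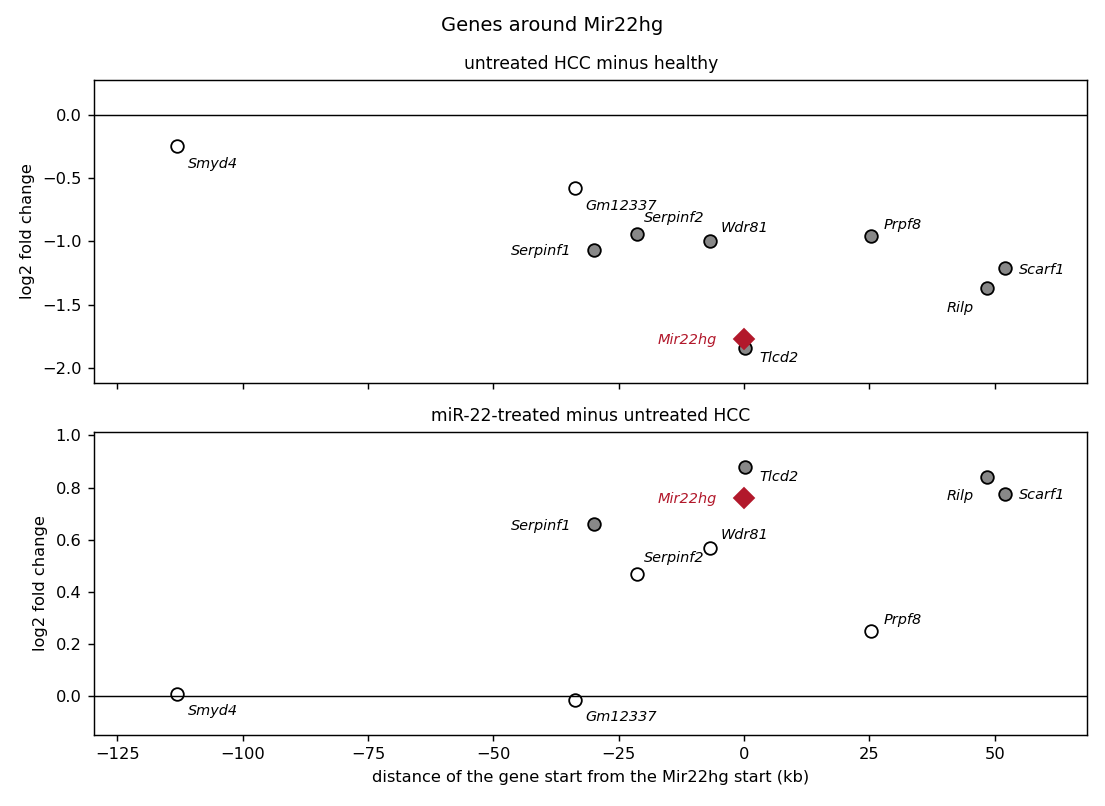
Log2 fold change of Mir22hg (diamond) and of the tested genes that reach within 50 kb of it (circles, filled where called), against the distance in kb of each gene's start from the Mir22hg start. In untreated HCC against healthy livers all circles lie below 0, from -1.84 to -0.25, and with miR-22 all but Gm12337 lie above 0.

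The genes whose pattern was most like that of Mir22hg were found by the root mean square difference of log2 CPM, each gene centred on its own mean, over the 9 libraries. The nearest of the 15716 other tested genes were 9030622O22Rik, Ccdc57, Setd4, Fam214a and Gas1, at 0.11 to 0.146, against a median of 0.808 over all genes. Setd4, a SET domain protein, had 24.9 ± 2.81, 6.07 ± 1.36 and 11 ± 0.872 CPM in healthy livers, untreated HCC and miR-22-treated HCC. Fam214a had 133 ± 3.42, 38.2 ± 6.6 and 64.9 ± 12.5 CPM. Tlcd2 was at 0.256, rank 142. These genes were chosen for their likeness, so their values are a description.

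The TET proteins are dioxygenases that oxidize 5-methylcytosine and so open the way to DNA demethylation. Of the 3 genes, Tet1 changed strongly and Tet2 and Tet3 did not pass both thresholds in any comparison. Tet1 had 0.189, 0.63 and 0.385 CPM in healthy livers, from only 3, 10 and 7 counts. It had 3.89, 5.02 and 2.8 CPM in untreated HCC, from 83, 112 and 75 counts. In miR-22-treated HCC it had 1.49, 1.28 and 1.66 CPM, from 26, 20 and 35 counts. The 3 groups did not overlap, and the treated livers again lay between the others. Tet1 was 9.58-fold higher in untreated HCC than in healthy livers (log2 fold change 3.26, interval 2.41 to 4.11, edgeR adjusted p = 1.6e-05). With miR-22 it was 2.62-fold lower than in untreated HCC (log2 fold change -1.39, interval -2.1 to -0.68, edgeR adjusted p = 0.0093) and 3.66-fold higher than in healthy livers (adjusted p = 0.0041, edgeR). The fall with miR-22 rests in part on HCC replicate 3, without which it was -1.17 on the log2 scale with an edgeR adjusted p of 0.056.

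Tet2 had 45.6, 48.1 and 40.8 CPM in healthy livers, 30.6, 36.9 and 31.3 in untreated HCC and 32.4, 27.2 and 33.3 with miR-22. Every healthy liver was above every tumor-bearing liver, and the 2 HCC groups overlapped. Against healthy livers, Tet2 was lower in untreated HCC by a log2 fold change of -0.44 (interval -0.68 to -0.2, adjusted p = 0.0041, edgeR) and in miR-22-treated HCC by -0.53 (interval -0.77 to -0.29, adjusted p = 0.0026, edgeR), both short of the fold threshold. Without healthy replicate 3 or without miR-22-treated replicate 4, the latter passed it, at -0.61 and -0.59. Between the HCC groups the difference was -0.09 (interval -0.33 to 0.15). Tet3 had 41.1, 43.1 and 39.3 CPM in healthy livers, 39.2, 49.4 and 44.9 in untreated HCC and 49.1, 38.6 and 38.6 with miR-22. All 3 groups overlapped, and the intervals of its log2 fold changes reached no further than -0.33 and 0.36. Tet3 shares 9.06% of its exonic bases with Bola3 on the opposite strand, and these libraries were not strand-specific.

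Per kilobase of transcript, Tet1 was a small part of the TET messages in every library. Its share of the summed CPM per kb of the 3 genes was 0.247% ± 0.126 (SD, n = 3) in healthy livers, 2.5% ± 0.581 in untreated HCC and 1.02% ± 0.146 with miR-22. Tet3 made up 60.1% ± 0.947, 67.2% ± 1.55 and 68.3% ± 3.05, and Tet2 39.7% ± 0.944, 30.3% ± 1.03 and 30.6% ± 2.9. The summed level of the 3 genes was 11.5 ± 0.701, 11.1 ± 1.24 and 10.4 ± 1.19 CPM per kb in the same order, and the livers of the 3 groups were not tested on this sum. The share of Tet3 rests on its canonical transcript of 5944 bases. With the longest transcript of 10904 bases, Tet3 was at 3.78, 4.08 and 3.86 CPM per kb, close to Tet2 at 4.57, 3.36 and 3.15.

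Fgfr1 encodes a receptor tyrosine kinase for fibroblast growth factors, and healthy hepatocytes mainly use its relative Fgfr4. It had 3.52, 3.78 and 3.79 CPM in healthy livers, 14, 23.2 and 14.3 in untreated HCC, and 11, 9.57 and 11.7 in miR-22-treated HCC. No group overlapped another, and HCC replicate 3 stood above the other untreated livers. Fgfr1 was 4.64-fold higher in untreated HCC than in healthy livers (log2 fold change 2.21, interval 1.77 to 2.66, edgeR adjusted p = 1.9e-06). It was 1.59-fold lower with miR-22 than without (log2 fold change -0.67, interval -1.08 to -0.27, adjusted p = 0.02, edgeR) and 2.91-fold higher in miR-22-treated HCC than in healthy livers (adjusted p = 0.00013, edgeR). The fall with miR-22 was -0.40 on the log2 scale without HCC replicate 3 (edgeR adjusted p = 0.1) and -0.60 without miR-22-treated replicate 3 (edgeR adjusted p = 0.086), so neither value passed both thresholds.

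Cdk6 encodes a cyclin D-dependent kinase that phosphorylates RB and drives entry into S phase. It had 27.2, 25.5 and 26.7 CPM in healthy livers, 62.7, 66.5 and 57.5 in untreated HCC, and 45.6, 42.5 and 44.9 in miR-22-treated HCC. The groups were tight and did not overlap. Cdk6 was 2.35-fold higher in untreated HCC than in healthy livers (log2 fold change 1.23, interval 1.05 to 1.42, edgeR adjusted p = 2.1e-07). With miR-22 its log2 fold change was -0.49 (interval -0.67 to -0.31, edgeR adjusted p = 0.0016), a 1.4-fold difference that fell short of the fold threshold. It stayed 1.68-fold higher than in healthy livers (adjusted p = 3.7e-05, edgeR). Leaving out each library in turn gave -0.54 to -0.44 for the difference with miR-22.

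Max encodes the partner with which MYC proteins bind DNA. It had 20.4, 19.3 and 17.6 CPM in healthy livers, 30.1, 27.5 and 26.6 in untreated HCC, and 22, 28.7 and 26.5 with miR-22. All HCC livers were above all healthy livers, while the HCC groups overlapped. Max was higher in untreated HCC by 0.56 on the log2 scale (interval 0.3 to 0.81, adjusted p = 0.0013, edgeR), a 1.47-fold difference just below the fold threshold, which it passed at 0.59 without healthy replicate 1 or without HCC replicate 4, and at 0.60 with upper-quartile factors or a minimum of 10 counts in every library. Between the HCC groups the difference was -0.13 (interval -0.37 to 0.12).

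Sp1 encodes a zinc finger factor that binds GC boxes in many promoters. It had 67.7, 71.9 and 61 CPM in healthy livers, 54.7, 59.9 and 54.9 in untreated HCC, and 57.3, 48.3 and 50.4 with miR-22. The healthy livers were the highest, and the HCC groups overlapped. Sp1 was lower than in healthy livers by -0.24 on the log2 scale in untreated HCC (adjusted p = 0.043, edgeR) and by -0.36 in miR-22-treated HCC (adjusted p = 0.01, edgeR), and it was not called in either. Between the HCC groups the difference was -0.12 (interval -0.32 to 0.09). Mecom, also known as Evi1, encodes a zinc finger regulator of transcription best known from blood stem cells. It had 2.83, 3.47 and 2.97 CPM in healthy livers, 3.94, 2.42 and 3.32 in untreated HCC, and 4.23, 1.4 and 2.85 with miR-22, where replicate 3 held only 22 counts. The groups overlapped throughout, and the intervals of its log2 fold changes ran from -0.9 to 0.79, so a change of less than about that size was not detectable with this spread between livers.

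**Figure D2:**
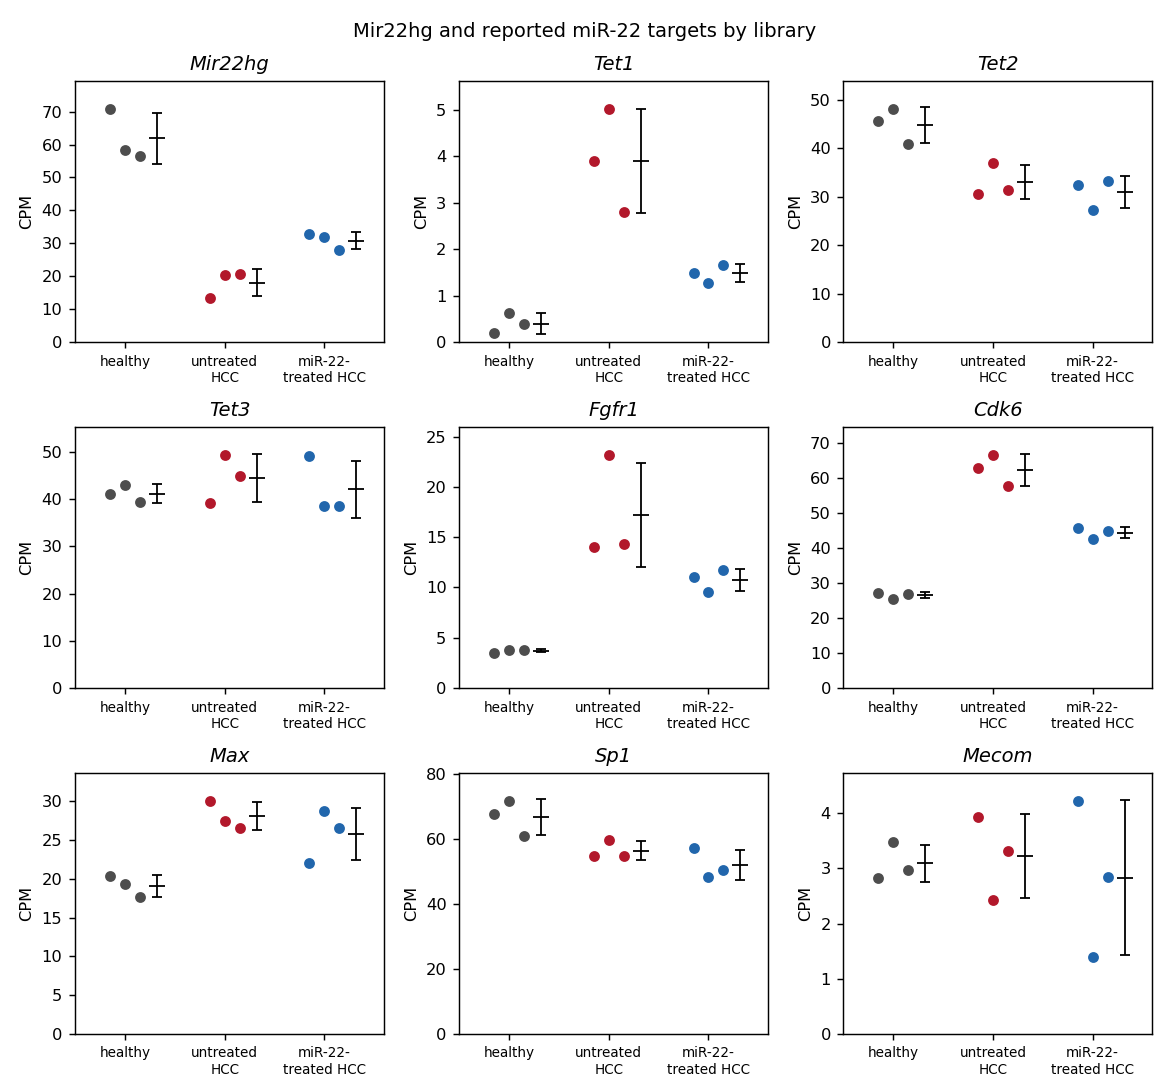
Level in CPM of each of the 9 genes in the 9 libraries (points, by group), with the mean and SD of each group (bar and whiskers, n = 3). In Mir22hg, Tet1, Fgfr1 and Cdk6 the miR-22-treated livers lie between the healthy and the untreated HCC livers, whereas in Tet3 and Mecom the groups overlap.

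In untreated HCC against healthy livers, 4 of the 9 genes (44.4%) were called, against 40.8% of all tested genes, so the share was near the background. The 3 called higher were Tet1, Fgfr1 and Cdk6, where 22.7% of all tested genes were called higher, and Mir22hg was the 1 called lower, where 18.1% were. In miR-22-treated against untreated HCC, 3 of 9 (33.3%) were called, against 13.8% of all tested genes. Without HCC replicate 3 only 1 of 9 was called, Mir22hg, since Tet1 and Fgfr1 both lost the call. In the comparison with all livers, Mir22hg was the 1 called higher, where 8.32% of all tested genes were, and Tet1 and Fgfr1 were called lower, where 5.47% of all tested genes were. In miR-22-treated HCC against healthy livers, 4 of 9 were called, against 24% of all tested genes. Tet1, Fgfr1 and Cdk6 were called higher, where 16.9% of all tested genes were, and Mir22hg was called lower, where 7.05% were. The median log2 fold change of the 9 genes was 0.11, -0.13 and 0.03 in the 3 comparisons, and that of all tested genes 0.01, 0.00 and 0.02. These comparisons share groups of livers, so a gene that is high in untreated HCC tends to differ from both other groups.

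**Figure D3:**
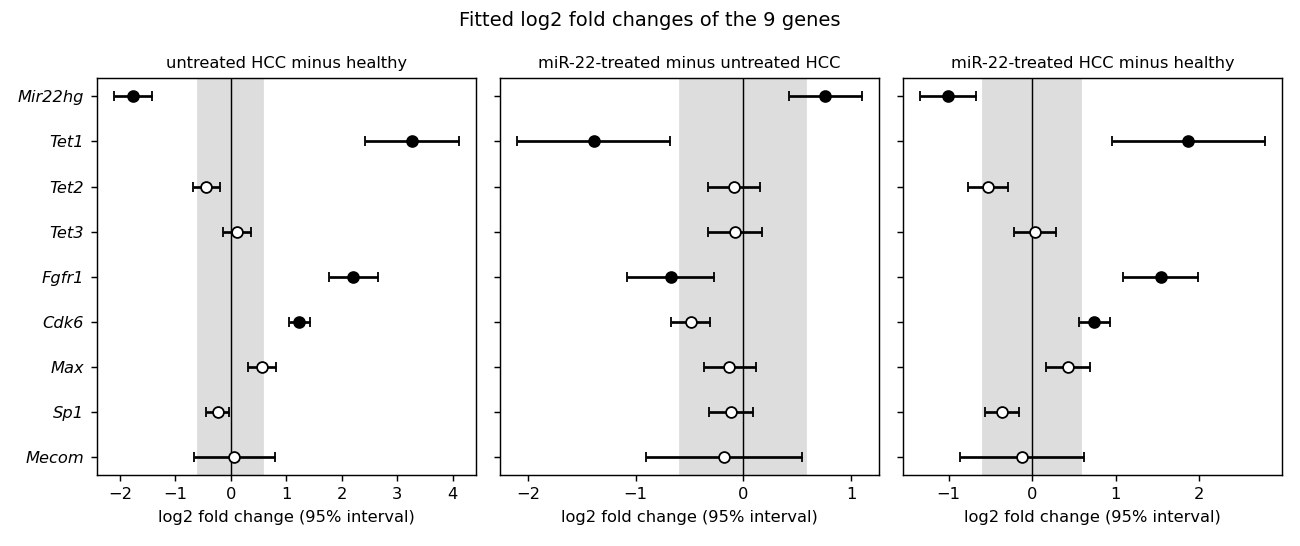
Fitted log2 fold change of each of the 9 genes with its 95% interval in the 3 comparisons, filled where called and with the range under the fold threshold of 1.5 shaded. Tet1 lies furthest from 0, at 3.26 in untreated HCC against healthy livers (interval 2.41 to 4.11), and Tet2, Tet3, Max, Sp1 and Mecom stay unfilled in every panel.

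The order of levels per kilobase of canonical transcript was led by Mir22hg in healthy livers at 35.3 ± 4.44 CPM per kb, followed by Max at 9.77 ± 0.735, Sp1 at 8.48 ± 0.697, Tet3 at 6.93 ± 0.321, Tet2 at 4.58 ± 0.377 and Cdk6 at 2.27 ± 0.0726. Max and Sp1 overlapped between libraries. Mecom at 0.608 ± 0.066 and Fgfr1 at 0.602 ± 0.025 did not differ beyond their spread, and Tet1 was the last at 0.0287 ± 0.0158. In untreated HCC the order was different at the top. Max at 14.4 ± 0.936 stood above Mir22hg at 10.3 ± 2.4, Tet3 at 7.49 ± 0.865 and Sp1 at 7.16 ± 0.371 overlapped, and Cdk6 at 5.34 ± 0.386 stood above Tet2 at 3.37 ± 0.354 and Fgfr1 at 2.8 ± 0.848, which overlapped. With miR-22, Mir22hg at 17.6 ± 1.46 was again above Max at 13.2 ± 1.74. By each gene's longest transcript, Max was at 6.97, 10.2 and 9.39 CPM per kb and Mir22hg was at 35.3, 10.3 and 17.6, within the spread of Max in untreated HCC and above it in the other groups, while Tet1 stayed the last. In healthy livers Sp1 at 8.48 then stood before Max, and Tet2 at 4.57 before Tet3 at 3.78. In untreated HCC, Tet3 at 4.08 then stood below Sp1 at 7.16 and Cdk6 at 5.34, so the overlap of Tet3 and Sp1 holds for canonical transcripts only.

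The TET pathway list held the DNA methyltransferases, their cofactor Uhrf1, base excision enzymes and sources of the TET cosubstrate. In untreated HCC, 3 of its 16 tested genes rose and 3 fell, and with miR-22 2 rose and 0 fell, with 14 not called. Of all tested genes, 40.8% were called in untreated HCC and 13.8% with miR-22, so both counts were near the background. The medians of the list were -0.10 and -0.12 on the log2 scale, and those of all tested genes 0.01 and 0.00. Uhrf1 rose from 2.4 to 25.3 CPM in untreated HCC (log2 fold change 3.37) and Dnmt1, the maintenance methyltransferase, from 19.8 to 44.4 (1.17). With miR-22 they were at 22.1 and 35.5 CPM, and neither difference from untreated HCC passed the test. Idh1, which makes the 2-oxoglutarate that TET enzymes use, had 520, 595 and 594 CPM in healthy livers, 298, 257 and 295 in untreated HCC, and 462, 499 and 367 with miR-22. It fell by 1.01 on the log2 scale in untreated HCC and rose by 0.64 with miR-22 (edgeR adjusted p = 0.0039). Without HCC replicate 3 or miR-22-treated replicate 3 that rise was 0.57 or 0.55, under the fold threshold. Gadd45g rose with miR-22 (1.85, adjusted p = 0.035, edgeR), but its treated livers had 78.6, 13 and 22.9 CPM, and without treated replicate 2 the value was 0.77 with an edgeR adjusted p of 0.25. It also lost the call without HCC replicate 3 (1.75) or replicate 4 (1.61), with DESeq2 (adjusted p = 0.065) and with limma (adjusted p = 0.079). Tdg, the glycosylase that removes oxidized methylcytosine, differed by -0.49 with miR-22 (edgeR adjusted p = 0.025) and was not called. Ogt, the O-GlcNAc transferase that binds TET proteins, had 194, 210 and 195 CPM in healthy livers, 117, 133 and 125 in untreated HCC and 157, 151 and 159 with miR-22. It fell in untreated HCC (-0.68), and its difference with miR-22 was 0.31 (edgeR adjusted p = 0.021), short of the fold threshold.

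Around Fgfr1, 2 of 10 tested receptors, ligands and adaptors rose in untreated HCC and 2 fell, and with miR-22 1 rose, near the 40.8% and 13.8% called over all tested genes. The medians were 0.03 and -0.09. Fgf1, a growth factor that binds all FGF receptors, had 165, 163 and 161 CPM in healthy livers, 20.2, 20.9 and 31.7 in untreated HCC, and 61.4, 85.5 and 79.7 with miR-22. It fell by 2.75 on the log2 scale in untreated HCC and rose by 1.63 with miR-22 (edgeR adjusted p = 9e-05). Fgfr2 rose by 0.91 in untreated HCC and differed by -0.24 with miR-22 (edgeR adjusted p = 0.069), and Fgfr3 differed by -0.36 (edgeR adjusted p = 0.014), under the fold threshold. The hepatokine Fgf21 rose by 3.55 in untreated HCC and differed by -0.01 with miR-22 (interval -0.72 to 0.7).

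The partners of Cdk6 are cyclins, inhibitors and targets of the kinase. In untreated HCC, 7 of 12 rose and 1 fell, where 22.7% and 18.1% of all tested genes did, with a median log2 fold change of 0.84. With miR-22, 4 fell, 1 rose and 7 were not called, where 5.47% of all tested genes fell and 8.32% rose, with a median of -0.43. Ccnd2, a D-type cyclin, had 16.8, 20.4 and 20.1 CPM in healthy livers, 84.5, 104 and 63.7 in untreated HCC, and 41.8, 29.4 and 47.4 with miR-22, a fall of 1.09 on the log2 scale (log2 fold change -1.09, edgeR adjusted p = 0.0016). Ccnd1, another D-type cyclin, had 279, 232 and 277 CPM in healthy livers, 324, 360 and 298 in untreated HCC and 191, 149 and 155 with miR-22. It did not pass the fold threshold in untreated HCC (0.32) and fell below both other groups with miR-22 (-0.99 against untreated HCC, edgeR adjusted p = 0.00033). The CDK inhibitor Cdkn2b had at most 5 counts in a healthy library, 14.4, 15.9 and 9.23 CPM in untreated HCC and 4.23, 3.95 and 7.33 with miR-22 (-1.33, edgeR adjusted p = 0.0076), and it lost that call with limma (-1.36, adjusted p = 0.093). Its neighbour Cdkn2a also fell (-1.36, edgeR adjusted p = 0.028), but lost that call without HCC replicate 2 or 3 or treated replicate 2 or 3 (-1.35 to -1.09), and with limma (-1.32, adjusted p = 0.13). Rbl2, an RB relative that represses cell cycle genes, went the other way, with 53.8, 58.8 and 56.5 CPM in healthy livers, 21.7, 23.1 and 29.2 in untreated HCC and 47, 49.3 and 34.9 with miR-22 (0.82, edgeR adjusted p = 0.0016).

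In the MYC-MAX network, 3 of 12 genes rose and 4 fell in untreated HCC, and with miR-22 2 rose and 1 fell. Of all tested genes, 22.7% rose and 18.1% fell in untreated HCC, and 8.32% rose and 5.47% fell with miR-22. The medians of the network were -0.03 and 0.02. Mlxipl encodes ChREBP, the glucose-responsive factor that turns on lipogenic genes. It had 366, 413 and 430 CPM in healthy livers, 92.4, 130 and 158 in untreated HCC and 298, 241 and 244 with miR-22 (log2 fold changes -1.67 and 1.04, edgeR adjusted p = 4.1e-06 and 0.0012). Mycl rose with miR-22 by 1.32, to 13 CPM from 5.23 (edgeR adjusted p = 0.0016). Mycn, low in healthy livers at 1.01, 0.63 and 0.989 CPM, had 15.5, 22.5 and 15.5 in untreated HCC and 11.2, 8.04 and 10.6 with miR-22 (-0.84, edgeR adjusted p = 0.007). Mxi1, a MAX partner that represses MYC targets, differed by 0.51 with miR-22 (edgeR adjusted p = 0.0029), short of the fold threshold, which it passed without treated replicate 4 (0.59).

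Of the 8 Sp family members listed beside Sp1, 4 were tested. In untreated HCC 1 of the 4 fell, Sp4 (-1.5), and with miR-22 0 were called by edgeR in the main fit, with 2 at an unadjusted p under 0.05 and 1 called by DESeq2, Sp2 (-0.57 in edgeR, adjusted p = 0.027). Sp2 was also called by edgeR with DESeq2 size factors (-0.596), upper-quartile factors (-0.609) or a minimum of 10 counts in every library (-0.587). With libraries left out, Sp2 was called without HCC replicate 3 (-0.631) or treated replicate 2 (-0.642), and Sp4 without treated replicate 4 (0.691). Sp5 had 5 to 23 counts in each library and differed by -0.75 with miR-22 (interval -1.71 to 0.21). Among 6 partners of Mecom, 2 rose in untreated HCC and 1 fell with miR-22. Over all tested genes 40.8% and 13.8% were called in these comparisons, and lists this short hold too few genes to set against them. The medians were -0.37 and -0.23 for the Sp family and 0.38 and -0.19 for the partners of Mecom. The partner that fell was Prdm16, the closest relative of Mecom, which had 1, 1 and 2 counts in healthy libraries, 2.06, 2.96 and 1.01 CPM in untreated HCC and 0.801, 0.319 and 0.714 with miR-22 (-1.68, edgeR adjusted p = 0.02). It lost the call without HCC replicate 2 or 3 or treated replicate 3 (-1.66, -1.29 and -1.40). The corepressors Ctbp1 and Ctbp2 differed by -0.22 and -0.31 with miR-22 and were not called.

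**Figure D4:**
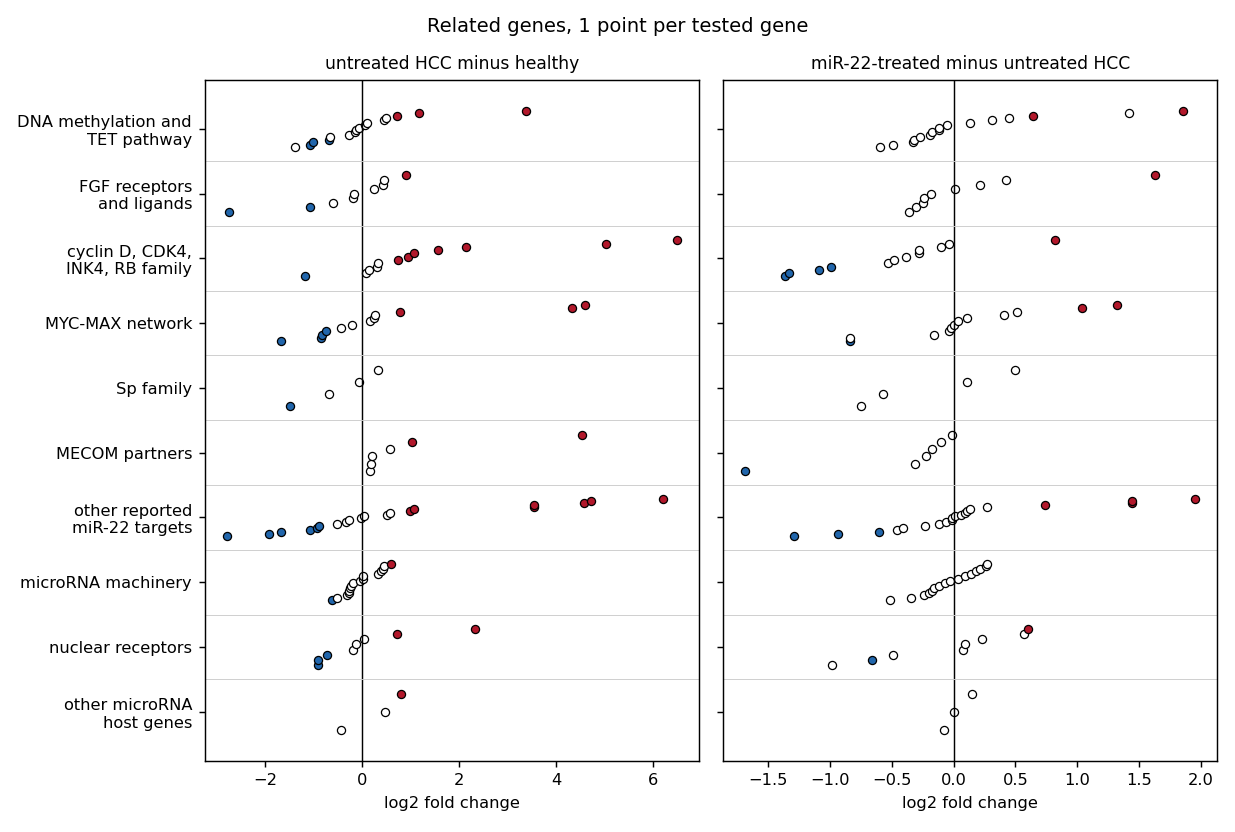
Log2 fold change of every tested gene of the lists around the 9 genes, 1 point per gene, in untreated HCC against healthy livers and in miR-22-treated against untreated HCC, with called genes in red (higher) and blue (lower) and all others open. Among the partners of Cdk6, 4 points are blue in the panel on miR-22, and the microRNA machinery has 0 coloured points there.

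A further 19 genes named as miR-22 targets by earlier work did not move in a common direction. In untreated HCC, 6 rose, 6 fell and 7 were not called, and with miR-22 4 rose, 3 fell and 12 were not called, where 40.8% and 13.8% of all tested genes were called. The median with miR-22 was a log2 fold change of 0.01 against 0.00 for all tested genes. The 4 that rose with miR-22 had the motif in their 3′ UTR. Erbb3, a receptor kinase, had 226, 230 and 199 CPM in healthy livers, 67.9, 64.1 and 73.2 in untreated HCC and 199, 178 and 179 with miR-22 (1.44, edgeR adjusted p = 1.1e-05). Esr1, the estrogen receptor, had 95.5, 116 and 105, 14.5, 15.2 and 15.8, and 61, 71.2 and 44 CPM (1.95, edgeR adjusted p = 1.9e-05). Ppara, the receptor that turns on fatty acid oxidation, had 203, 221 and 175, 46.7, 46.7 and 65, and 135, 172 and 123 CPM (1.44, edgeR adjusted p = 0.00016). Sirt1, a deacetylase, rose by 0.74 (adjusted p = 0.003, edgeR). In these genes the treated livers were above all untreated HCC livers. The 3 that fell were Bmp7 (-1.29), the CDK inhibitor Cdkn1a (-0.93) and cyclin A2, Ccna2 (-0.60), of which Bmp7 and Cdkn1a held the motif and Ccna2 did not. Ccna2 was just over the fold threshold (1.52-fold, edgeR adjusted p = 0.024). The fold changes of Ccna2 and Cdkn1a were not followed under the alternatives. Hif1a, with 0 motifs, was at 69.3, 104 and 95.3 CPM, and its difference with miR-22 was -0.12 (interval -0.32 to 0.08). The motif was in 12 of the 19 by canonical transcripts.

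Erbb3, Sirt1 and Esr1 are shown with sites because they rose with miR-22 and hold a motif that is followed by an A. Esr1 has a further site without the A.
Erbb3, chr10:128405194-128405223 on GRCm39, minus strand: agactcttggggaacatttgatGGCAGCTa
Sirt1, chr10:63155933-63155962 on GRCm39, minus strand: actggcattttccaaaacttgtGGCAGCTa
Esr1, chr10:4953615-4953644 on GRCm39, plus strand: cctgggaaggaaaattattcagGGCAGCTa

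Over all tested genes with a 3′ UTR, the 2287 with a motif had a median log2 fold change of -0.0584 with miR-22, and 56.7% of them were below 0. The 11263 without one had a median of -0.0081, with 51.1% below 0. Among the 377 with at least 2 motifs the median was -0.0854, with 61% below 0. The 3′ UTR was longer in genes with a motif, with a median of 2613 bases against 1127, and the part of length in this difference was not tested. In untreated HCC against healthy livers the medians were 0.0721 with and 0.0443 without a motif. The log2 fold changes of Cdk6, Fgfr1 and Tet1 with miR-22, -0.49 to -1.39, were further below 0 than the lower quartile of genes with a motif, -0.305, while those of Tet2, Max, Sp1 and Mecom lay within the middle of that range.

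The microRNA machinery list held nucleases, exporters, Argonautes and their partners. Of 16 genes, Ran rose and Ago4 fell in untreated HCC, with 10 at an edgeR adjusted p under 0.05, where 40.8% of all tested genes were called. Both were just over the fold threshold (1.52-fold and 1.53-fold). Under the replicate block 0 genes of the list were called there, and with libraries left out 0 to 2 were. With miR-22 0 were called by edgeR, DESeq2 or limma, with 3 at an unadjusted p under 0.05, where edgeR called 13.8% of all tested genes. The medians of the list were -0.12 and -0.05. Drosha, the nuclease that cuts hairpins from primary transcripts, had 20.2 CPM in untreated HCC and 14.1 with miR-22 (-0.51, edgeR adjusted p = 0.012). Xpo5, which exports hairpins from the nucleus, had 36.6 and 28.8 CPM (-0.34, edgeR adjusted p = 0.016). Both were short of the fold threshold, which Drosha passed without treated replicate 2 (-0.59). Tnrc6a, a scaffold that Argonaute recruits, differed by 0.21 (edgeR adjusted p = 0.086). Ago2, the main slicing Argonaute, differed by -0.17 (interval -0.34 to 0.01). Of the other microRNA host genes, 3 were tested, Mir17hg, Mir99ahg and Mir100hg. In untreated HCC Mir99ahg was called higher (0.80, edgeR adjusted p = 0.038), a call it lost without healthy replicate 1 or 2 or HCC replicate 2 or 3 (0.54 to 0.77). With miR-22, 0 of 3 were called by edgeR, DESeq2 or limma, with 0 at an unadjusted p under 0.05, and their log2 fold changes were between -0.08 and 0.15.

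Nuclear receptors whose ligands include retinoids, vitamin D and bile acids are known inducers of miR-22. Of 8 tested, 2 rose and 3 fell in untreated HCC, and with miR-22 1 rose and 1 fell, where 40.8% and 13.8% of all tested genes were called. The medians were -0.16 and 0.08. Nr1h4, the bile acid receptor FXR, had 134, 133 and 140 CPM in healthy livers, 64, 71.4 and 82 in untreated HCC and 111, 112 and 107 with miR-22 (0.60, edgeR adjusted p = 0.0011). That value is just over the fold threshold and was 0.52 without HCC replicate 2, 0.58 with DESeq2 and with its size factors, and 0.56 with upper-quartile factors. Rxra, the common partner of these receptors, was at 248 CPM in untreated HCC and 368 with miR-22 (0.57, edgeR adjusted p = 0.005), short of the fold threshold, which it passed without HCC replicate 4 (0.70) or treated replicate 4 (0.63). Rarg rose in untreated HCC (0.72, edgeR adjusted p = 0.0068), a call it lost without healthy replicate 1 (0.569) or HCC replicate 3 (0.584). It fell with miR-22 (-0.66, edgeR adjusted p = 0.028), a call it lost without HCC replicate 3 or treated replicate 2 or 3 (-0.58 to -0.52).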

How the data were processed

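RNA from 9 mouse livers was sequenced in total, 3 per group. Per the study's methods, the authors made non-directional libraries, estimated reads per gene with Salmon on GRCm39, and summed them with tximport. They used DESeq2 1.18 and FastQC 0.11.7 per the submitters' processing notes. Whole-number counts as deposited by the authors, without normalization, were used throughout. A second deposited table, the same counts divided by 1 constant per library, was not used.

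Tests used edgeR 4.0.16 under R 4.3.3, with TMM factors, the filterByExpr filter and the quasi-likelihood F test (two-sided), in a model of the 3 groups without covariates. The totals of 16664659 to 23908392 counts set the precision, and intervals are 95% intervals of the fit. Alternatives were DESeq2 1.42.0, its size factors, upper-quartile factors, other filters on low counts, the 2 compared groups alone, the replicate number as a block, limma 3.58.1, no fold threshold, and each library left out. The script was also run on simulated counts. Replicates of a group differed by 6.59 to 31.1 times the counting noise (chi-square per degree of freedom), so all 9 were kept as separate samples.

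Positions and 3′ UTRs come from GENCODE M39 on GRCm39 (51731 of 55401 identifiers matched), and miRNA sequences from RefSeq on GRCm38.p6. The study's methods name an older GENCODE release, so transcript lengths and overlaps given here may differ from those behind the counts. Strand was not recorded, so reads of overlapping genes cannot be told apart. The genes named are the 9 members, per related list the 3 with the smallest p with miR-22 and up to 5 called there, the 5 most like Mir22hg, and the oncogenes. Other genes were named after their values were seen. The members and the lists were chosen with earlier results of these data known.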

Additional observations from a re-analysis of the deposited data

How the results depend on the processing

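Of the member fold changes under the alternatives, 437 kept direction and call, 7 reversed, 7 gained and 5 lost the call. Without the fold threshold, 7 members were called in both HCC groups against healthy livers, not 4. Leaving out each library gave 4 to 5 called members in untreated HCC, 1 to 3 with miR-22 (1 without HCC replicate 3) and 4 to 5 in miR-22-treated HCC against healthy livers. Reversals touched values near 0. Mecom was -0.0755 in untreated HCC under the replicate block and, with libraries left out, ran from -0.0983 to 0.235, from -0.577 to 0.129 with miR-22 and from -0.523 to 0.193 for treated against healthy livers. Tet3 ran from -0.103 to 0.0925 in the latter. With miR-22, Mir99ahg ran from -0.284 to 0.0465 and Mir100hg from -0.206 to 0.253. Mir100hg was -0.02111 with DESeq2 size factors, -0.03429 with upper-quartile factors, -0.02326 with DESeq2, -0.001195 without a filter, -0.01054 at 10 or more counts, -0.002374 with the 2 groups alone, -0.04319 with the replicate block and -0.01759 with limma. The causes were not tested.

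The alternatives for related lists and the longest 3′ UTR were chosen after seeing the data. In untreated HCC, the replicate block called 3 receptors (5 as reported; 3 to 5 with libraries left out), 0 host genes (1; 0 to 1) and 0 machinery genes (2; 0 to 2), and upper-quartile factors and the minimum of 10 counts called 1 machinery gene. With miR-22, the minimum of 10 counts and limma called 3 partners of Cdk6 (5; 4 to 6). DESeq2, its size factors, upper-quartile factors and the block called 1 receptor (2; 1 to 4). The minimum of 10 counts and the block called 0 partners of Mecom (1; 0 to 1). DESeq2, its size factors, upper-quartile factors and the minimum of 10 counts called 1 Sp gene (0; 0 to 1), and DESeq2, limma and the block called 1 TET pathway gene (2; 0 to 2). FGF genes ran from 1 to 2 and machinery genes from 0 to 1 with libraries left out. With the longest 3′ UTR, 29.89% of genes held the motif instead of 16.88%.

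Same-numbered HCC libraries correlated at -0.235 to -0.121, so they gave no sign of a shared deviation in the same direction. With 3 libraries per group, each centred on its group mean, this cannot show whether the numbers pair the livers. The replicate block left 2 members called with miR-22, without Fgfr1 (-0.64, edgeR adjusted p = 0.067). It brought Max past the fold threshold in untreated HCC (0.61), and with miR-22 Gadd45g, Cdkn2a, Prdm16 and Rarg lost their calls under it, as did Rarg and Mir99ahg in untreated HCC. Low counts limit Tet1 in healthy livers, and the spread between livers limits Mecom.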
